A study of Mus musculus with 6 samples.

Results

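The germline genes described here are 36 genes of meiosis, the piRNA pathway and testis-type expression, many of which carry methylated promoters in somatic cells. They were chosen as a list of symbols with earlier results of these data known. Counts over them, set beside those of all genes, are therefore descriptions and no independent test. Each gene was read on every probe set that the platform annotation gives to that gene alone. Such a probe set existed for 32 of the 36 genes (40 probe sets), of 18194 genes on the array. Rhox2a, Fkbp6, Tuba3a and Xlr3a had none and were not analysed by gene. A probe set was tested where its log2 intensity was at least 4 (an intensity of 16) on at least 3 of the 6 arrays. That left 25 of the 36 genes, on 28 probe sets, of 10496 genes tested in all. Of the 25, Ct55, Tex13b and Smc1b passed this filter through 1 genotype alone and so had to differ, and counts over the tested genes do not stand for all 36.

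RNA was compared between mouse embryonic stem cells lacking both glycogen synthase kinase-3 genes (Gsk-3a-/-; Gsk-3b-/-, called DKO) and wild-type embryonic stem cells labelled E14K, with 3 arrays per genotype. All cells were cultured without feeder cells on gelatin, in medium with 15% fetal bovine serum and leukaemia inhibitory factor at 1000 units per ml. The labels do not give the parental line or the number of clones of the DKO cells, so the genotype and the history of the lines cannot be told apart. Separate cultures are not stated either, so the spread behind each p-value is that of these 6 samples and may be technical.

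Germline genes are a group in which promoter DNA methylation is a main layer of silencing. Their CpG-rich promoters gain methylation around implantation through the de novo DNA methyltransferases, and lose it again in primordial germ cells, where the genes come on. In embryonic stem cells many of them are also held down by a Polycomb complex, PRC1.6, whose MGA and MAX subunits bind the E-box and whose E2F6 subunit binds E2F sites. The products serve pairing and recombination of chromosomes in meiosis, and the piRNA pathway, which silences transposons in the male germ line.

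On each array the median intensity was 10 to 11. The 10 embryonic stem cell markers were all tested, and their summed intensity was 29226 to 32189 in DKO and 30886 to 32641 in wild-type cells. Gsk3a lay at log2 6.04 to 7.18 in DKO and 7.89 to 8.65 in wild-type cells (difference -1.38, adjusted p = 0.0942, and 0.00646 with replicate numbers as blocks). The brightest Gsk3b probe set differed by -0.21 (adjusted p = 0.832), and whether these probe sets lie inside the deleted parts was not known here. Bacterial spike-in controls read a mean log2 of 10.18 and 10.53 on the arrays of replicate 3 and 1.64 to 1.85 on the other 4, so replicate 3 of both genotypes stood apart. Signal at the 3' over the 5' end of control transcripts had a mean log2 ratio of 2.20 ± 0.32 for DKO against 1.98 ± 0.33 for wild-type arrays (SD, n = 3), and its part in the results was not tested. Over all probe sets, 675 of 20841 (3.24%) passed an adjusted p of 0.05.

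The germline genes differed between the genotypes in both directions. Genes of meiotic chromosomes and the piRNA pathway that passed the test fell in DKO, with Meioc 4.57-fold lower. The genes that rose were of the X-linked testis-type group, with Ct55 at least 26.3-fold higher. Taf7l, an X-linked gene of another group, fell. Of the 25 tested genes 6 fell (Meioc, Smc1b, Dmc1, Mael, Slc25a31 and Taf7l), 2 rose (Ct55 and Tex13b) and 17 did not pass. Among these, Smc1b, Ct55 and Tex13b passed the filter through 1 genotype alone, which fixed their direction. All genes that rose are among them. Such passing held for 3 of the 25 genes and for 203 of all 10496. Over all 10496 genes, 2.50% fell and 1.64% rose. The median log2 difference of the 25 was -0.82, against -0.0025 over all genes, and it was -0.81 with the 3 genes under the filter in 1 genotype set to their limits.

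The titles number the replicates alike in both genotypes, and same-numbered arrays deviated together, so this number was also fitted as a block. With it, 11 of the 25 fell and 4 rose, against 5.63% and 5.07% of all genes. The genes that passed in addition were Sycp1, Sycp3, Tex11, Ddx4 and Mov10l1, which were lower, and Rhox5 and Brdt, which were higher. With the spike-in batch (replicate 3 against the others) as the block instead, Sycp1, Sycp3, Mov10l1 and Rhox5 passed. Ddx4, Tex11 and Brdt then did not (limma adjusted p = 0.0761, 0.0992 and 0.117). As a description, all DKO arrays lay below all wild-type arrays in 12 genes and above them in 3, where 10.4% and 8.49% of all genes did so. These counts include Smc1b among the lower and Ct55 and Tex13b among the higher genes, which could not overlap given the filter. The counts rested on single arrays. They dropped to 2 lower genes when replicate 1 or 2 of DKO or replicate 2 of wild-type was left out, and to 3 without wild-type replicate 1. The count of higher genes was 1 in every fit that left out an array, except that without wild-type replicate 1. On the arrays of replicates 1 and 2 alone, 4 genes fell and 1 rose.

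**Figure D1:**
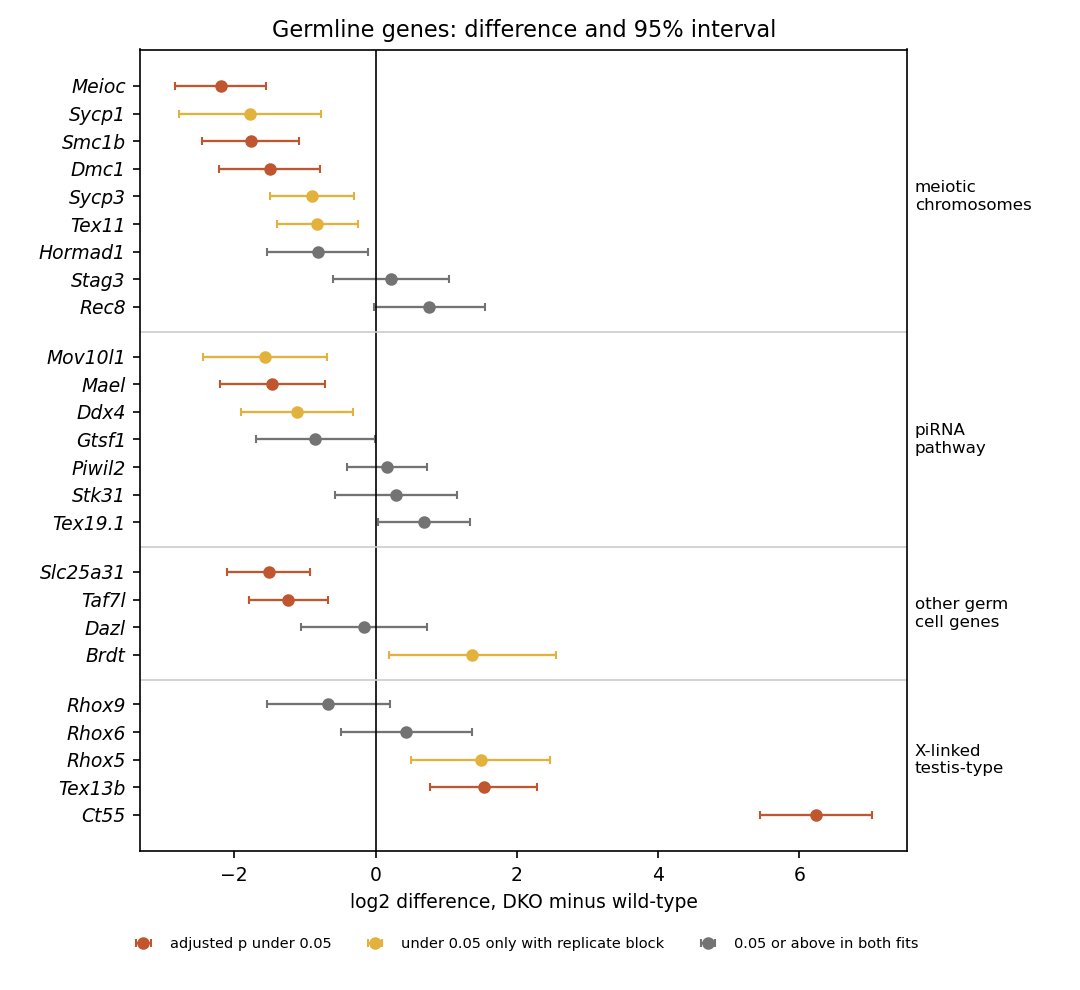
Log2 difference (DKO minus wild-type, horizontal axis) of the 25 tested germline genes, grouped by role, with the 95% confidence interval of the moderated model as bars. Colours give the adjusted p without and with the replicate number as a block. Ct55 (6.24), Tex13b and Smc1b are drawn at fitted differences against a genotype under the filter, which are no measured sizes: their limits are 4.72, 0.17 and -0.81. Meioc, measured in both genotypes, lies at -2.19.

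By group median, the promoters of the meiotic, piRNA and other germ cell genes were rich in CpG, and those of the X-linked testis-type genes were not. Single promoters departed from this on both sides, such as that of X-linked Tex13b with 13 CpG and that of Tex19.2, of the piRNA group, with 2. RefSeq promoter windows (GRCm38.p6, from 250 bases before to 50 after the start) were found for 32 of the 36 genes, 37 windows in all. A window held a median of 19 CpG, against 7 over all 32851 windows of the table, and the ratio of observed to expected CpG was 0.72 against 0.38. By group the median was 22.5 CpG for meiotic, 20 for piRNA pathway and 20.5 for other germ cell genes, but 6 for the 6 windows of X-linked testis-type genes, whose ratio was 0.39. The E-box CACGTG, which reads the same on both strands, was present in 19 of the 37 windows (51.4%), against 7.15% of all windows. The E2F6 motif GCGGGAA, searched on both strands, was present in 9 (24.3%), against 4.60%, and no matches of the motifs overlapped in these windows. Several genes had overlapping windows that hold the same match. By gene, 15 of 32 (46.9%) held the E-box and 8 (25.0%) the E2F6 motif. Both motifs hold a CpG. Among windows with at least 15 CpG, a limit set after the values were seen, the E-box was in 17 of 25 germline windows (68.0%) and in 11.3% of all, and the E2F6 motif in 8 (32.0%) and 10.3%. These 25 windows belong to 21 genes. A match is a description of the letters and does not show binding, and no methylation was measured here.

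The 250 bases before the start are shown for the 6 genes that passed the test and hold a match there, since they let the genes that fell be read beside Ct55, which rose. Capitals mark the motifs: the E-box in Mael (chr1:166238745-166238994, minus strand), Slc25a31 (chr3:40708621-40708870, plus), Taf7l (chrX:134476491-134476740, minus) and Ct55 (chrX:53724581-53724830, plus), and the E2F6 motif in Meioc (chr11:102665335-102665584, plus) and Smc1b (chr15:85131958-85132207, minus, where it is read on the other strand). Positions are those of GRCm38.p6, and each sequence runs 5' to 3' along the gene.
Mael: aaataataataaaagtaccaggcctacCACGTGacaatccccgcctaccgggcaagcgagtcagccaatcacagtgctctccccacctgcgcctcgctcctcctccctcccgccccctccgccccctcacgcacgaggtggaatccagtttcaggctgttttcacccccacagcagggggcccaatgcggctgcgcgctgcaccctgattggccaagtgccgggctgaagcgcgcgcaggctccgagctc
Slc25a31: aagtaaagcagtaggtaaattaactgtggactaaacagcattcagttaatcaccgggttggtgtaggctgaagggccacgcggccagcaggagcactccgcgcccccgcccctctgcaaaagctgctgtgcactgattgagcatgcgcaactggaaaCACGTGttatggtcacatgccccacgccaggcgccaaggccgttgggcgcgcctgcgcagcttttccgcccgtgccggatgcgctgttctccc
Taf7l: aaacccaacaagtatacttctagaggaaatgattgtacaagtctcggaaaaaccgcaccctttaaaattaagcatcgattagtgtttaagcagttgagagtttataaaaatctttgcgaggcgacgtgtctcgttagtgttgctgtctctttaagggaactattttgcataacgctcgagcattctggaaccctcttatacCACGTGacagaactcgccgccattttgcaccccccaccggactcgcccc
Ct55: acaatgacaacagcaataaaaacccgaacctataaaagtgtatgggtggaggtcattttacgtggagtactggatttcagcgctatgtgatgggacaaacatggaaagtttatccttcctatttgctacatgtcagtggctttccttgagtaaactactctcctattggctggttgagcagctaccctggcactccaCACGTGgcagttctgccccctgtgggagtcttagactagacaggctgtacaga
Meioc: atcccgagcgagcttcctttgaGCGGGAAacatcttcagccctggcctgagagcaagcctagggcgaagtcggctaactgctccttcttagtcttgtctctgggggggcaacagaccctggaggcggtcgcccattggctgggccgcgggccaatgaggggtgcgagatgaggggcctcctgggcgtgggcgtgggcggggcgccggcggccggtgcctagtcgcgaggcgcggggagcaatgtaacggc
Smc1b: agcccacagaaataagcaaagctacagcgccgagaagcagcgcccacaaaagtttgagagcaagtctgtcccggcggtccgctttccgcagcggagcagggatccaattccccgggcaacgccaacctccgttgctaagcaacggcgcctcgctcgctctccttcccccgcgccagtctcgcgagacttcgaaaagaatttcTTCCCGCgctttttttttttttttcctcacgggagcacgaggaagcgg

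Slc25a31 also had an E2F6 match within the 50 bases after the start. Dmc1 and Tex13b, the other 2 genes that passed, had neither motif in their windows. The Ct55 window held 7 CpG and that of Tex13b 13, and those of the 6 genes that fell held 17 to 29. The genes that did not pass held 5 to 38, so the ranges overlapped widely. Sycp3, Hormad1, Ddx4, Slc25a31 and Stag3 held both motifs.

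**Figure D2:**
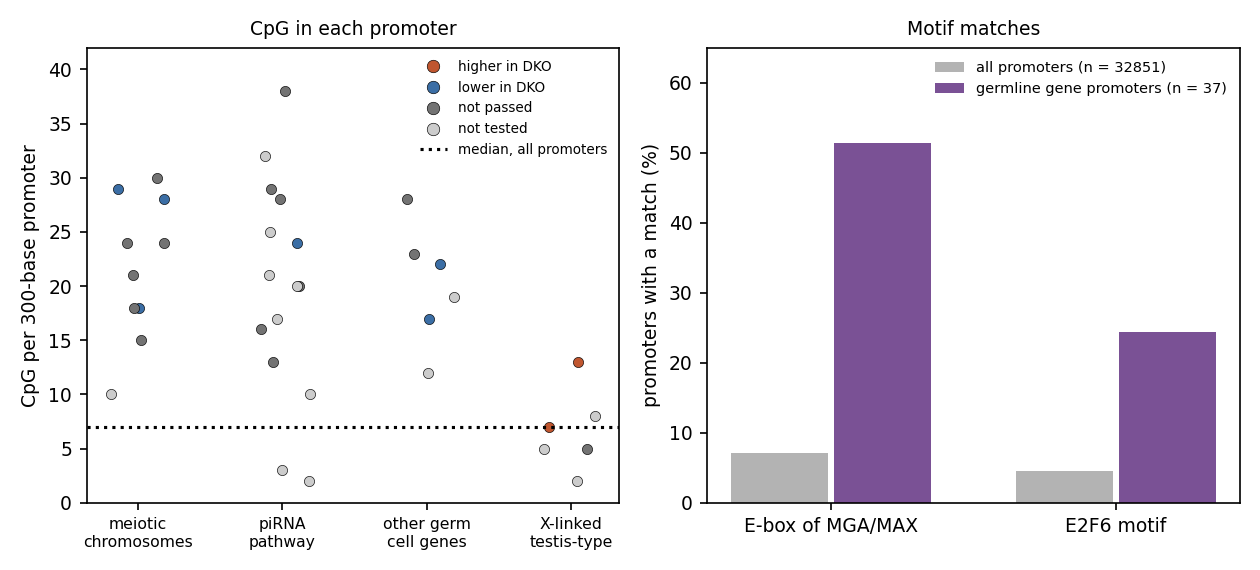
Left, CpG per 300-base promoter window (vertical axis) for each window of the germline genes, by role, coloured by the result in DKO against wild-type cells, with the median of all windows (7) as a dotted line. Right, the percentage of windows with a match to each motif: 51.4% of 37 germline windows held the E-box against 7.15% of all 32851.

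Among the genes of meiotic chromosomes, 9 of 10 were tested, 3 fell and 6 did not pass. Their median difference was -0.90, or -0.82 with Smc1b at its limit. Meioc, a partner of the RNA-binding protein YTHDC2 that keeps germ cells in the meiotic programme, had intensities of 204, 350 and 247 in DKO and of 1001, 1474 and 1142 in wild-type cells. Every DKO array lay far below every wild-type array. The mean log2 intensities were 8.02 ± 0.39 and 10.22 ± 0.28 (SD, n = 3), a difference of -2.19 (SE 0.28, adjusted p = 0.00358), and it passed in each of 6 fits with 1 array removed (highest adjusted p = 0.0302).

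Smc1b, the cohesin subunit particular to meiosis, had intensities of 8, 7 and 10 in DKO and of 22, 24 and 42 in wild-type cells. All DKO arrays lay under the filter, so the fold has only a limit, at least 1.76-fold lower. The fitted difference was -1.77 (SE 0.31, adjusted p = 0.0156). Leaving out replicate 1 or 2 of DKO ended the call (adjusted p up to 0.100). With values under the filter set to it, the difference was -0.81 (adjusted p = 0.245).

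Dmc1, the meiotic recombinase, was read by 2 probe sets. On the brighter, the intensities were 57, 34 and 26 in DKO and 111, 113 and 91 in wild-type cells, a difference of -1.50 (SE 0.31, adjusted p = 0.0377). The genotypes did not overlap, but among the fits that left out an array it passed only without DKO replicate 1 (highest adjusted p = 0.152). On the other, at 53, 24 and 19 against 71, 65 and 52, DKO replicate 1 overlapped the wild-type arrays, and the difference of -1.10 did not pass (adjusted p = 0.215, and 0.0245 with the block).

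Sycp1, which forms the transverse filaments of the synaptonemal complex, read 19, 16 and 10 in DKO and 82, 60 and 25 in wild-type cells. The arrays did not overlap, and the difference of -1.78 passed with the replicate block (adjusted p = 0.00108) and not without it (adjusted p = 0.0775). Sycp3, of the lateral elements, read 576, 675 and 857 against 1111, 1224 and 1599. Its arrays did not overlap either, with a difference of -0.90 (adjusted p = 0.132, and 0.0208 with the block). Tex11, an X-linked gene needed for crossovers, differed by -0.82 (adjusted p = 0.158, and 0.0349 with the block), and Hormad1, a protein of the chromosome axis, by -0.82 (adjusted p = 0.293, and 0.0577 with the block). The cohesin genes Stag3 and Rec8 had differences of 0.21 and 0.76 (adjusted p = 0.90 and 0.404), with 95% intervals of -0.61 to 1.04 and -0.024 to 1.55.

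**Figure D3:**
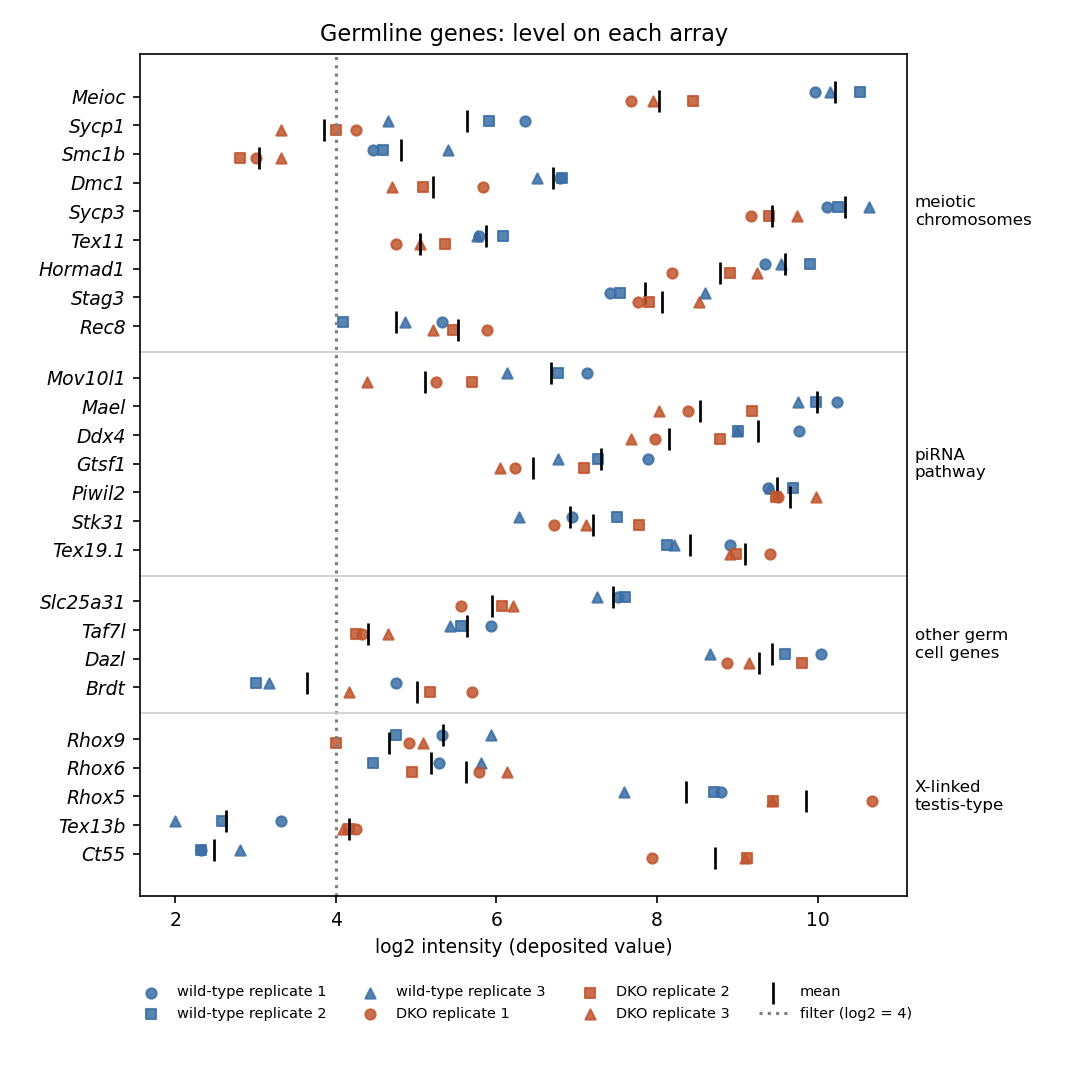
Log2 intensity (horizontal axis) of the 25 tested germline genes on each array, 3 wild-type (blue) and 3 DKO (orange), with the genotype mean as a bar and the filter at 4 as a dotted line. Marker shapes give the replicate number. Levels of different genes come from different probe sets and cannot be compared with each other. The arrays of Meioc and Ct55 separate by genotype, while those of Stag3 and Dazl overlap.

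Of the 12 piRNA pathway genes 7 were tested, 1 fell and 6 did not pass. The median difference was -0.85. Mael, which acts in transposon silencing, had intensities of 336, 583 and 261 in DKO and of 1216, 1007 and 867 in wild-type cells. No array overlapped, and the difference was -1.46 (SE 0.33, adjusted p = 0.0492). That call is at the edge of the threshold. Among the fits that left out an array it held only without DKO replicate 2 (highest adjusted p = 0.213), and with the block the adjusted p was 0.00589.

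Mov10l1, the RNA helicase that feeds piRNA precursors into processing, read 38, 52 and 21 in DKO and 140, 109 and 70 in wild-type cells. Every DKO array was lower, and the difference of -1.56 passed with the block (adjusted p = 0.00245) and not without it (adjusted p = 0.0750). Ddx4 (Vasa), the helicase of germ granules, read 251, 440 and 205 against 875, 516 and 509. Here too the arrays were apart, by -1.11 (adjusted p = 0.169, and 0.0416 with the block). Gtsf1, a cofactor of Piwi proteins, differed by -0.85 and overlapped (adjusted p = 0.372).

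The other piRNA pathway genes did not lie lower. Piwil2, a Piwi protein that binds piRNAs, read 714 to 1015 in DKO and 669 to 829 in wild-type cells, a difference of 0.16 with a 95% interval of -0.40 to 0.72 (adjusted p = 0.887). A fall of Piwil2 by more than 0.40 lies outside that interval. Stk31 differed by 0.29 on its brighter probe set and by 0.47 on the other (adjusted p = 0.862 and 0.744). Tex19.1, which acts against retrotransposons, read 678, 508 and 480 in DKO and 481, 280 and 297 in wild-type cells, a difference of 0.68 that did not pass (adjusted p = 0.349).

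Among 6 germ cell genes of other function 4 were tested, 2 fell and 2 did not pass. Slc25a31, the ADP/ATP carrier of the testis, had intensities of 47, 67 and 74 in DKO and of 183, 195 and 152 in wild-type cells. The arrays were clearly apart, with a difference of -1.51 (SE 0.26, adjusted p = 0.0155). The call was lost when replicate 1 or 2 of DKO or replicate 2 of wild-type was left out (adjusted p up to 0.0821). Taf7l, an X-linked paralogue of a TFIID subunit, read 20, 19 and 25 in DKO and 61, 47 and 43 in wild-type cells. Its difference was -1.23 (SE 0.25, adjusted p = 0.0317), and it did not pass without replicate 1 or replicate 2 of either genotype (highest adjusted p = 0.127).

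Dazl, an RNA-binding protein of early germ cells, read 469 to 893 in DKO and 403 to 1058 in wild-type cells on its brighter probe set. The arrays overlapped fully, with a difference of -0.16 and a 95% interval of -1.05 to 0.73 (adjusted p = 0.938). Brdt, a bromodomain protein of spermatocytes, read 52, 36 and 18 in DKO and 27, 8 and 9 in wild-type cells. It was higher in each same-numbered pair, yet the genotypes overlapped, and the difference of 1.37 passed only with the block (adjusted p = 0.285, and 0.0116 with the block). Its other 2 probe sets were under the filter, at 4 to 11 on every array.

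The X-linked testis-type genes include cancer/testis antigens and the Rhox homeobox cluster. Of 8 listed, 5 were tested, 2 rose and 3 did not pass, with a median difference of 1.49, or 0.44 with Ct55 and Tex13b at their limits. With the X-linked genes of the other groups added, 7 were tested, 2 rose and 1 fell (Taf7l). With the block 3 of these rose and 2 fell (Taf7l and Tex11). Of all 356 X-linked genes tested, 1.97% rose and 3.93% fell. Ct55, a cancer/testis antigen, had intensities of 246, 556 and 547 in DKO and of 5, 5 and 7 in wild-type cells. All wild-type arrays lay under the filter, so it was at least 26.3-fold higher in DKO. It passed in each of 6 fits with 1 array removed (adjusted p = 8.62e-05 with all arrays, highest 0.00161).

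Tex13b read 19, 18 and 17 in DKO and 10, 6 and 4 in wild-type cells, close to the filter in DKO and below it in wild-type cells. It was at least 1.12-fold higher (fitted difference 1.53, adjusted p = 0.0442), and held only without wild-type replicate 1 among the fits that left out an array (highest adjusted p = 0.195). With values under the filter set to it, the difference was 0.17 (adjusted p = 0.842). Its second probe set was not tested, at 23, 10 and 8 against 9, 6 and 5.

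Rhox5, a homeobox gene of the reproductive tract and early embryo, read 1644, 697 and 693 in DKO and 445, 419 and 193 in wild-type cells. All DKO arrays were higher, DKO replicate 1 the most, and the difference of 1.49 passed with the block (adjusted p = 0.00673) and not without it (adjusted p = 0.135). Its cluster neighbours Rhox6 and Rhox9 differed by 0.44 and -0.67 (adjusted p = 0.785 and 0.557), and their arrays overlapped.

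**Figure D4:**
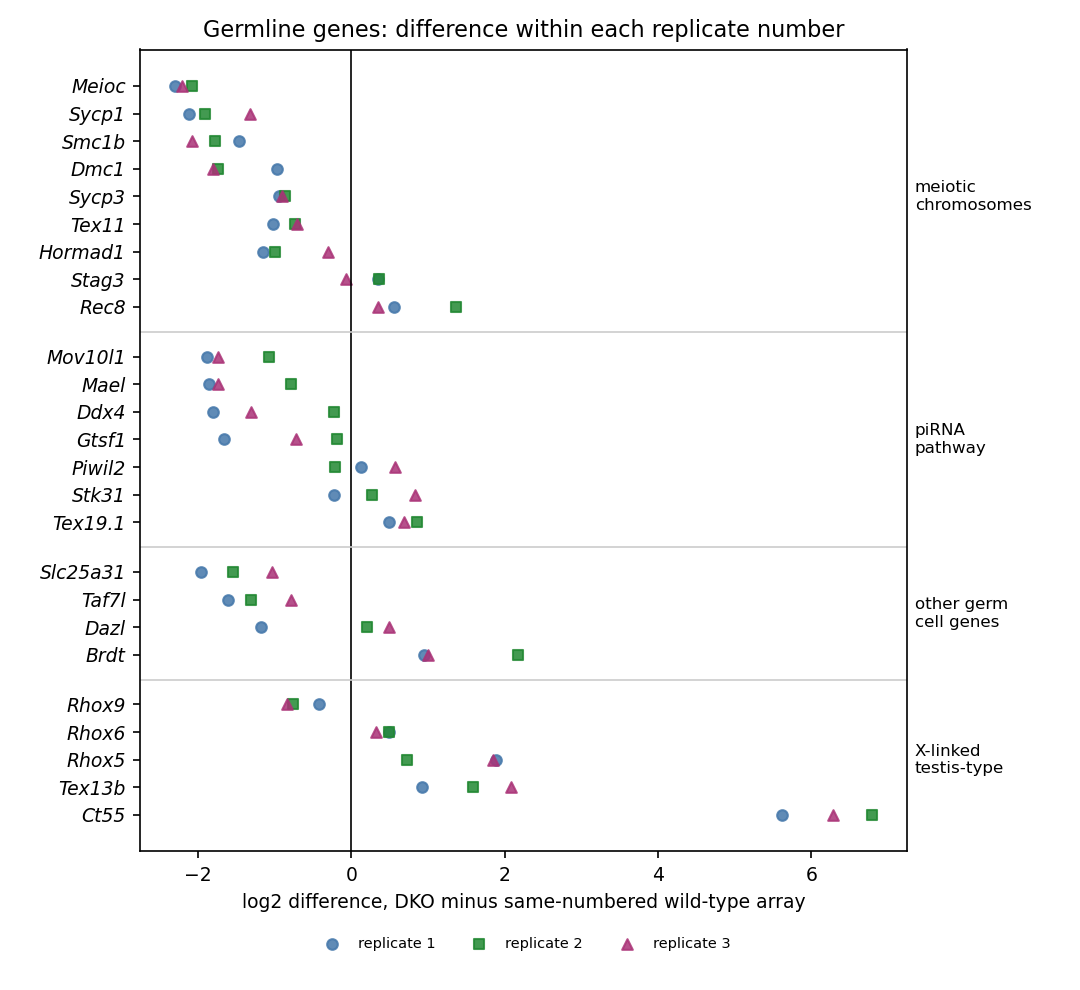
Log2 difference between each DKO array and the wild-type array of the same replicate number (horizontal axis) for the 25 tested germline genes, by role. Of the 25 genes, 14 lay below 0 in all 3 pairs, 7 lay above 0 in all 3, and 4 were mixed. Smc1b (below 0) and Ct55 and Tex13b (above 0) passed the filter through 1 genotype alone, which fixed their direction in every pair.

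Within the same-numbered pairs, most genes kept 1 direction, while the size of the difference varied. In 14 of the 25 genes DKO was lower in all 3 pairs, and in 7 it was higher in all 3, where 21.9% and 21.0% of all genes were. Smc1b among the 14, and Ct55 and Tex13b among the 7, had their direction fixed by the filter in every pair. The median over the 25 genes was -0.96 in replicate 1, -0.23 in replicate 2 and -0.71 in replicate 3, and that over all genes lay between -0.06 and 0.07. Meioc differed by -2.29, -2.07 and -2.21 in the 3 pairs, while Ddx4 ranged from -1.80 in replicate 1 to -0.23 in replicate 2.

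The 7 germline genes with a probe set but no test were dim. Tdrd1, Tdrd9, Asz1 and Magea4 read 3 to 7 on every array, and Tex19.2 read 5 to 9. Tex101, a surface protein of germ cells, read 13, 10 and 12 in DKO and 7, 6 and 6 in wild-type cells. Sycp2, a lateral element protein like Sycp3, read 11, 8 and 7 in DKO and 26, 21 and 14 in wild-type cells, with 2 arrays above the filter. At these levels rounding to whole numbers is coarse, and no difference was tested.

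Other genes of the same pathways were read in the same way. Over all genes tested, 1.64% rose and 2.50% fell, and with the block 5.07% and 5.63%. Against these shares, 1 call in a short list says little about its pathway. Of 18 tested genes among 38 other meiosis genes, 1 rose and 17 did not pass, with a median difference of -0.07. The riser, Tex15, which acts in meiotic recombination and in piRNA-directed silencing, read 697, 656 and 509 in DKO and 104, 122 and 102 in wild-type cells. Every DKO array was far above the wild-type arrays, a difference of 2.50 (SE 0.24, adjusted p = 0.000826), and it passed in all 6 fits that left out an array (highest adjusted p = 0.0116). With the block 4 more passed, and all were lower: Syce1, Syce3, Majin and Stra8. Stra8, the retinoic acid-induced gene of meiotic entry, read 22, 55 and 40 against 79, 246 and 395 (difference -2.44, adjusted p = 0.0591, and 0.000666 with the block).

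Of 12 tested genes among 20 other piRNA pathway genes, 1 fell and 11 did not pass (median -0.02). Piwil4, the nuclear Piwi protein, read 47, 115 and 43 in DKO and 233, 294 and 184 in wild-type cells (difference -1.92, adjusted p = 0.0331). Without any 1 of replicates 1 and 3 of DKO and replicates 1 and 2 of wild-type it was lost (adjusted p up to 0.190). With the block Tdrkh and Ddx25 also fell. Only 3 of 38 other X-linked testis-type genes were tested. By limma 0 passed, 1 had an unadjusted p under 0.05, and with the block Rhox13 fell (difference -0.99, adjusted p = 0.0250, and 0.0991 without the block). Of 10 tested primordial germ cell genes, which include Rhox6 and Rhox9 of the germline genes above, 1 fell, Prdm1, and 9 did not pass.

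A list of regulators of germline gene silencing held genes of PRC1.6, histone H3K9 methylation and DNA methylation, and also Tet1 and Tet2, which act in DNA demethylation. Of 30 tested members of this list 1 fell, 29 did not pass, and the median difference was -0.11. Over all genes 2.50% fell. The PRC1.6 genes Pcgf6, E2f6, Mga, Max and L3mbtl2 differed by -0.11, -0.19, -0.15, -0.34 and -0.10 (adjusted p = 0.936, 0.868, 0.908, 0.649 and 0.935). Setdb1, an H3K9 methyltransferase, differed by 0.43 (adjusted p = 0.675). Dnmt3a, which fell, differed by -1.67 (adjusted p = 0.0142), a call that leaving out replicate 1 of DKO or replicate 2 of wild-type ended (adjusted p up to 0.0709). Dnmt3a has 5 single-gene probe sets, and this reading is of the brightest tested one alone. With the block Morc1, a germline silencing gene, rose in addition (difference 1.04, adjusted p = 0.0168, and 0.282 without the block).

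Defining markers of mature germ cells were mostly under the filter. Of 9 male germ cell markers with a probe set, spermatogonial ones included, Prm2, Tnp1, Tnp2, Acrv1 and Acr were under the filter. Prm1, Zbtb16, Gfra1 and Uchl1 were tested, and of these Uchl1 alone passed, lower in DKO. Of 10 oocyte markers 9 were under the filter, and Zp3, the tested one, passed higher in DKO (adjusted p = 0.0375). The summed intensity of the male list was 276 to 360 in DKO and 532 to 764 in wild-type cells, most of it from Uchl1, and that of the oocyte list was 94 to 107 and 47 to 63. Feeder fibroblast markers summed to 1317 to 2079 and 1522 to 1566, with Col3a1, Pdgfrb, Postn, Lum and Dcn under the filter. Of 5 tested, Col1a1 fell with the block alone (105, 73 and 76 in DKO against 316, 135 and 221, difference -1.34, adjusted p = 0.0805, and 0.00506 with the block). Trophoblast markers summed to 5114 to 7944 and 4360 to 7862, and of 5 tested Cdx2 rose, from 99, 104 and 103 in wild-type cells to 1307, 2073 and 1920 in DKO (adjusted p = 9.71e-05). Eomes rose with the block alone, at 235, 189 and 291 in DKO against 135, 68 and 106 (difference 1.24, adjusted p = 0.0787, and 0.00734 with the block). Of 7 tested endoderm markers 0 passed by limma, and they summed to 2986 to 5513 and 1370 to 4380. The part of these cell types in the germline results was not tested. In bulk samples, fewer cells that express a gene and less RNA per cell cannot be told apart.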

How the data were processed

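Expression arrays were made from total RNA of 3 DKO and 3 wild-type samples, 25 ng of each amplified and labelled, per the labels' protocols. The authors deposited 1 intensity per probe set and array, already normalized and rounded to whole numbers. The scale is not stated and was taken as linear from the values (at least 1, reaching 12861). GCRMA 2.14.1, limma 2.16.5, GCOS and R 2.8.0 are listed, with no role, per the submitters' processing notes. Which genome build served the annotation is not given. The number of arrays limits the precision.

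Here values were log2-transformed with no pseudocount. Probe sets were named by the platform annotation through gene identifiers of RefSeq (GRCm38.p6): of 45101 probe sets 34958 had 1 gene, 932 several and 9211 none. The genotypes were compared with limma 3.58.1 (R 4.3.3; two-sided moderated test from lmFit, then eBayes), first tested on simulated data. P-values of all 20841 tested probe sets were adjusted together by Benjamini-Hochberg, with 0.05 as the threshold. A gene was read on its brightest tested probe set. Where all 3 arrays of a genotype lie under a log2 of 4, the fold is a limit against 4, and list medians are also given with such genes at that limit. Same-numbered arrays correlated in their deviations from the genotype mean at 0.427, 0.354 and 0.595, and differently numbered arrays at -0.488 to 0.113. The titles' numbers were therefore taken to pair the samples, and a fit with the number as a block is given beside results it changes. That choice came from these same data, and deviations within a genotype are tied to each other. By the SD of log2 differences, wild-type replicate 1 lay nearer to DKO replicate 2 (0.676) than to DKO replicate 1 (0.731). No 2 arrays were alike (at most 1.79% identical values). The members and gene lists were chosen with earlier results of these data known. Every member is named, with values on each array for those that passed or did not overlap by at least 1 log2 unit, and related genes are named where they passed. Alternatives covered the filter, a pseudocount of 16, normalization, variance model, blocks and leaving out arrays.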

Additional observations from a re-analysis of the deposited data

Results flagged for a closer look

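A probe set outside the gene-level results showed a signal well above that of the wild-type arrays. The probe set is assigned by the annotation to 3 genes of the X-linked Xlr3 family together (Xlr3a, Xlr3b and Xlr3c), and no 1 of them can be named from it. Its intensities were 1316, 1376 and 929 in DKO and 63, 40 and 15 in wild-type cells. The log2 difference was 5.15 (SE 0.48, adjusted p = 0.000794), higher in 3 of 3 DKO arrays, and the highest adjusted p over the fits that left out an array was 0.0201. The 2 probe sets that Tuba3a shares with Tuba3b differed by -0.09 and -0.05 (adjusted p = 0.961 and 0.975).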

How the results depend on the processing

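Ct55 and Meioc passed under all settings tried. Against 675 probe sets, 2 higher and 6 lower germline genes, the replicate block gave 1995, 4 and 11, and the spike-in batch as a block gave 1117, with 3 and 9. Replicates 1 and 2 alone gave 440, 1 and 4. The stricter filter (log2 of 6) gave 373, 1 and 3, and no filter gave 495 probe sets and 1 and 1 genes, with more probe sets in the adjustment. The pseudocount of 16 and values under the filter set to it each left 1 higher gene and 4 lower. Leaving out 1 array gave 290 to 604 probe sets, 1 to 2 higher and 2 to 6 lower genes. The lowest, 290, lacked DKO replicate 1, while 381 lacked DKO replicate 2 and 319 wild-type replicate 2. Quantile normalization, median centring, the intensity trend and the other rules for reading a gene kept these counts within 1.5 times, and no germline gene turned its sign under the scalings. Signs turned only in genes that had not passed. With replicates 1 and 2 alone Piwil2 was at -0.047. With 1 array left out, Piwil2 ranged from -0.0037 to 0.26, Stag3 from -0.015 to 0.59, Stk31 from -0.022 to 0.59, and Dazl from -0.55 to 0.15 on its brighter and from -0.31 to 0.71 on its dimmer probe set. Dim probe sets, coarse through rounding, and 3 arrays per genotype limit all of these values.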

Other observations

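Single germ cell markers outside the germline gene list differed. Zp3, a zona pellucida gene of oocytes, read 57, 47 and 51 in DKO and 21, 7 and 18 in wild-type cells (difference 1.90, adjusted p = 0.0375), while Zp1 and Zp2 read 2 to 3 on every array. The call for Zp3 was lost without any 1 of the DKO arrays or wild-type replicate 2 (highest adjusted p = 0.197). Uchl1, a ubiquitin hydrolase of spermatogonia and neurons, read 301, 196 and 196 against 704, 458 and 572 (difference -1.33, adjusted p = 0.0383), and passed in none of 6 fits with 1 array removed (highest adjusted p = 0.147). Prdm1, a repressor needed to specify primordial germ cells, read 17, 15 and 14 against 41, 32 and 59 (difference -1.48, adjusted p = 0.0229), and passed only without wild-type replicate 2 (highest adjusted p = 0.0917). In the blocked fit Dppa3 and Ifitm3, also of primordial germ cells, were lower, and Alpl was higher (adjusted p = 0.00297, 0.0137 and 0.0178).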
